A study of Homo sapiens with 4 samples.

Results

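A single gene that encodes a protein can also give transcripts that keep an intron, stop their reading frame early or have no reading frame at all. A table of non-coding transcripts in HUH7 cells held 892 transcripts of 525 protein-coding genes, including 219 that are annotated as coding today. HUH7 is an established human hepatocellular carcinoma line. They are the rows, of 19835 in the table, whose identifier belongs, in the GENCODE 44 annotation mapped to GRCh37, to a gene of type protein_coding, with 5 rows of 2 genes left out. RNA came from untreated HUH7 cells in standard serum-containing culture, was depleted of ribosomal RNA with Ribo-Zero and made into strand-specific libraries, while the molecule entry of the labels reads polyA RNA. The labels give no control or treated arm, and the 4 libraries, called replicates 1 to 4, were taken as 1 group. Their titles carry a letter that the labels do not explain, L for replicates 1 and 3 and H for replicates 2 and 4. Between H and L, limma with Benjamini-Hochberg adjustment called 2 of 11435 tested rows of the table (0.0175%) and 0 of 622 rows of coding genes, where 37 had an unadjusted p under 0.05, and with 2 libraries a letter a difference may be missed. Nothing says that they came from separate cultures, so errors and p-values measure the spread between libraries, which may be technical.

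Most of these transcripts belong to 4 types in today's annotation. A retained_intron transcript keeps, in its spliced RNA, sequence that coding transcripts of the gene splice out. A nonsense_mediated_decay transcript has a stop codon well before its last exon junction, the arrangement by which ribosomes mark an mRNA for degradation. A protein_coding_CDS_not_defined transcript overlaps a coding gene but has no assigned reading frame. A protein_coding transcript was listed as non-coding in the Ensembl 68 annotation used for the table and has since been given a reading frame. Of all 892 rows, 69 are MANE Select transcripts, the agreed main coding transcript of a gene, and 96 are the Ensembl canonical transcript. The table held 117 retained_intron, 461 protein_coding_CDS_not_defined, 90 nonsense_mediated_decay and 219 protein_coding rows, plus 4 processed_transcript rows and 1 non_stop_decay row.

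Values are FPKM, fragments scaled to transcript length and to the mapped fragments of each library, so levels of different transcripts are compared per length. Coding transcripts were not in the alignment reference of this table. A read from an mRNA that shares exon sequence with a row could therefore be placed on that row, and its part in the levels was not tested. An estimated 4500000, 4860000, 4720000 and 5060000 fragments lay behind the table in replicates 1 to 4, and the 892 rows took 1.85 ± 0.104% of the summed FPKM (SD, n = 4). The highest row of the whole table had a mean of 1177025.5 FPKM, where the sum over all rows had a mean of 1890343.5 FPKM. That share and its spread therefore depend strongly on this 1 row. The identity of the cells could not be checked from these rows: none of 20 hepatocyte markers is a host gene, and of 16 markers of other cell types 1 is, with GFAP-204 of the astrocyte gene GFAP listed at 0.

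In the transcript models of 39 of the 117 retained_intron rows, at least 1 whole intron of the gene is left uncut. The splice sites come from the annotation, and reads across them were not examined. The ends of 3 such introns are printed below in GRCh37, on the strand of the gene and from 5′ to 3′, for 3 of the 4 retained_intron rows among the 10 of highest mean whose model is unchanged since the table was made and holds a whole intron. Each donor window has 10 exon bases and 20 intron bases, each acceptor window 25 intron bases and 5 exon bases, and capitals mark the first and last 2 bases of the intron.
KCP-201 donor, chr7:128519556-128519585, minus strand: cgggctccagGTgcggctccagggcgagtc
KCP-201 acceptor, chr7:128518772-128518801, minus strand: cccagtctcaggcctctccacacAGgtgct
VPS11-202 donor, chr11:118944100-118944129, plus strand: caaactggagGCaaggccaccaggctcgca
VPS11-202 acceptor, chr11:118944485-118944514, plus strand: ttttctaatctctcttcccttctAGatgct
ZNF23-211 donor, chr16:71484473-71484502, minus strand: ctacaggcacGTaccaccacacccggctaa
ZNF23-211 acceptor, chr16:71483781-71483810, minus strand: ttatgttttctgttttttatagtAGatatt
The VPS11 intron starts with GC, the minor donor form, and the other two start with GT.

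The study's own selection began at 5 FPKM, and 361 of the 892 rows (40.5%) had a mean above that level. Of the 892, 622 had a mean of at least 0.1 FPKM and were tested, and 270 were not, 246 of them listed at 0 in all 4 libraries. The one-sample test of limma on log2(FPKM + 1), with Benjamini-Hochberg adjustment over all 11435 rows of the table that reached 0.1 FPKM, placed 315 above 5 FPKM, 220 below it and 87 on neither side. Among rows tested, and so leaving out the 270 lowest, that is 50.6% above and 35.4% below, beside 41.9% above and 43.3% below over all rows of the table. Over the other rows of the table it was 41.4% above and 43.8% below. Those other rows include the few left out by the rule and rows that matched no current transcript. The median level of tested rows was 8.99 FPKM here and 4.57 FPKM in the rest of the table, and 90 rows had a mean above 100 FPKM.

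**Figure D1:**
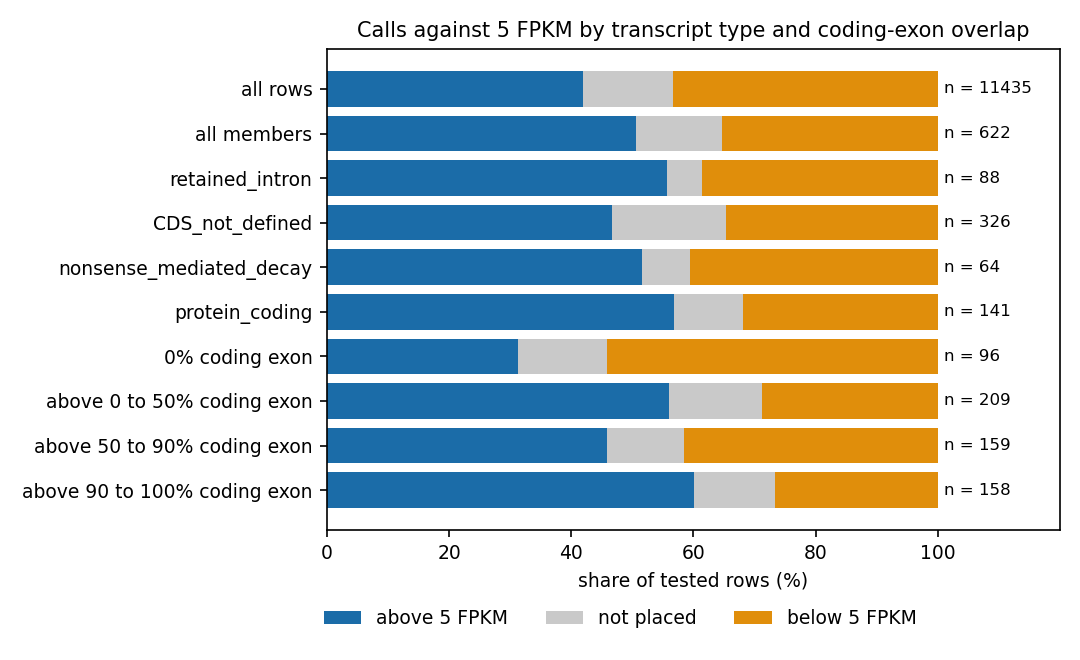
Bars give the share (%) of tested rows placed above 5 FPKM, on neither side or below it, for all rows of the table, for all isoforms of coding genes, for 4 transcript types and for 4 classes of same-strand coding-exon overlap, with the number tested at the right. Rows with 0% overlap have the smallest share above 5 FPKM (31.2%) and those above 90% the largest (60.1%). Overlap is with coding transcripts other than the row itself.

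By type, the medians of tested rows ran from 6.32 to 14.2 FPKM. Retained_intron rows had 49 of 88 tested above 5 FPKM and 34 below, with a median of 11.2 FPKM and quartiles of 0.949 and 45.8 FPKM. Protein_coding rows had 80 of 141 above and 45 below, with a median of 14.2 FPKM. Nonsense_mediated_decay rows had 33 of 64 above and 26 below, with a median of 10.2 FPKM. Protein_coding_CDS_not_defined rows had 152 of 326 above and 113 below, with a median of 6.32 FPKM. In each library the median of the retained_intron rows lay above that of the protein_coding_CDS_not_defined rows: 11.3 against 6.77 FPKM in replicate 1, 11.5 against 7.80 in replicate 2, 9.19 against 6.54 in replicate 3 and 12.1 against 5.90 in replicate 4. The log2 ratio of the medians plus 1 was 0.63 ± 0.22 (SD, n = 4), higher in 4 of 4 libraries, with an exact two-sided sign-flip permutation p of 0.13, the smallest that 4 libraries allow. The lower quartiles stood in the other order, 0.949 FPKM for retained_intron and 1.56 FPKM for protein_coding_CDS_not_defined rows, and 38.6% of the first and 34.7% of the second were below 5 FPKM.

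The highest retained_intron row was SLC50A1-213, from the gene of a sugar transporter, at 457.71, 453.5, 453.65 and 502.19 FPKM in replicates 1 to 4. Replicate 4 was the high one and the other 3 lay within a few FPKM of each other. It was above 5 FPKM by 6.28 ± 0.0712 (SE) on the log2(FPKM + 1) scale, with an adjusted p of 4.87e-12 by limma. Of its 928 nt, 68% were intron of the coding transcripts, with 1 intron held whole. In addition, 31% of its sequence was repeated in the genome.

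KCP-201, from the gene of a secreted regulator of bone morphogenetic protein signalling, was at 217.54, 226.19, 240.11 and 216.68 FPKM. It holds an intron of 799 nt and the 4 libraries differed by a CV of 4.83%. VPS11-202, from the gene of a core subunit of the tethering complexes that fuse vesicles with lysosomes, was at 109.54, 123.71, 125.49 and 115.4 FPKM and holds the 400 nt intron with the GC donor. Its neighbour VPS11-203 covers a different stretch of the gene and was at 60.7 ± 6.502 FPKM. ZNF23-211, from a zinc finger gene, was at 70.69, 83.3, 72.55 and 78.31 FPKM, and 45.2% of its bases also lie in exons of a second coding gene on the same strand.

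Several abundant rows of this type did not hold a whole intron. SPN-204, from the gene of the leukocyte surface protein sialophorin, was at 306.65, 349.14, 332.85 and 310.23 FPKM. It is a single exon of 2077 nt (chr16:29679763-29681839) that lies wholly within untranslated exon sequence of the coding transcript, and 51% of its sequence was repeated. MNT-209, from the gene of a transcriptional repressor of the MAX network, was at 292.51, 343.98, 321.91 and 303.41 FPKM and lies wholly within intron (chr17:2292560-2295372). PMM2-211, named for the gene of phosphomannomutase, was at 203 ± 10.1 FPKM, shared no exon with a coding transcript on its strand and had 34.7% of its bases opposite exons of CARHSP1. LAT-209, from the gene of a T cell adaptor, was at 189 ± 17.0 FPKM with 80% of its bases in intron. The remaining 3 of the 10 highest come from zinc finger genes or their kin: ZNF267-206 at 165 ± 5.50 FPKM, ZFP90-212 at 82.9 ± 5.47 FPKM and ZNF23-211 above.

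**Figure D2:**
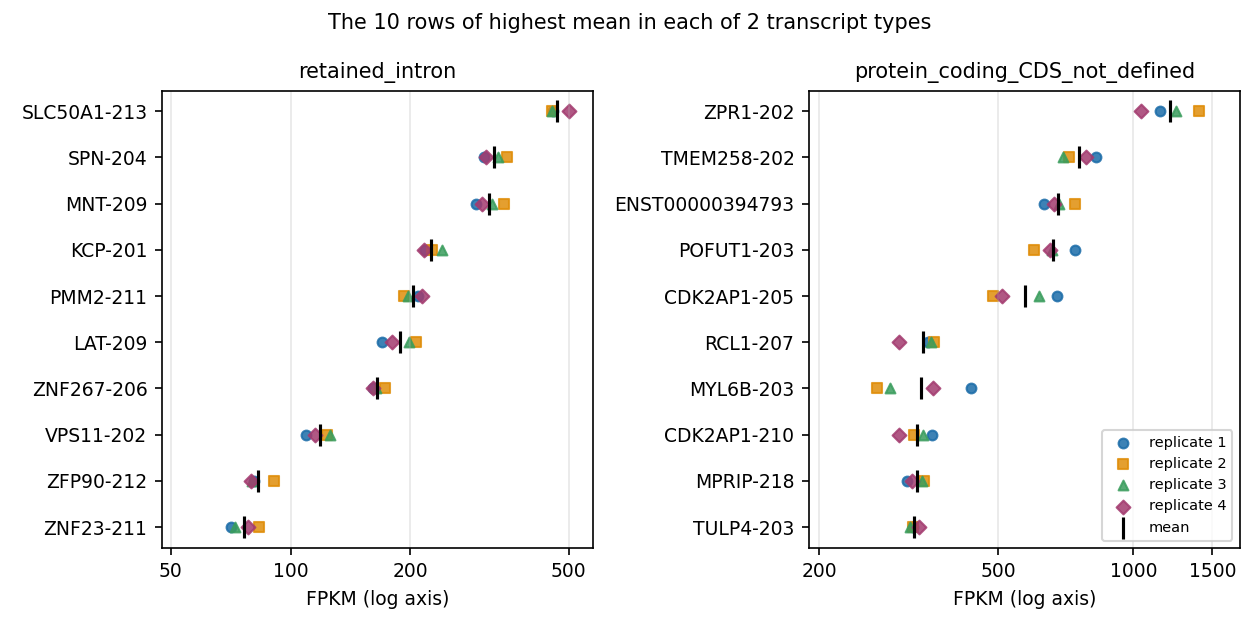
Points give FPKM (log axis) in each of the 4 libraries for the 10 rows of highest mean of type retained_intron (left) and protein_coding_CDS_not_defined (right), and black ticks give the mean. The 4 points of a row lie close together beside the spread between rows, with MYL6B-203 (CV 22.4%) the widest.

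The introns held whole by the annotated retained_intron models are short. In all, 39 of the 117 retained_intron rows hold at least 1 whole intron of a coding transcript of the gene, 58 distinct introns together, and 98 contain intron bases. Those 58 introns ran from 64 to 1443 nt with a median of 289.5 nt, against a median of 2595 nt for 7129 introns of coding transcripts of all host genes. Their median G + C content was 58.8%, against 43.0%. These are properties of the annotation, and 15 of the 39 rows were not tested, 10 of them listed at 0. The 24 tested rows hold 42 distinct introns of 71 to 1284 nt, with a median of 224 nt and 59.9% G + C. SLC37A4 and TMEM191C alone hold 22 of the 58, and the other 36 had a median of 290 nt and 57.0% G + C. Of the 58, 57 had GT-AG ends and 1 had GC-AG ends. An intron was counted only where it lies within 1 annotated exon, so no intron longer than that exon could be counted. The 39 rows come from 21 genes and the 7129 introns from all 525 host genes. Length and G + C were therefore not compared within the same genes, and the rule itself favours short introns. Of the 39 rows, 18 have a model that is unchanged since the table was made. Rows with a whole intron had 12 of 24 tested above 5 FPKM and those without had 37 of 64.

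**Figure D3:**
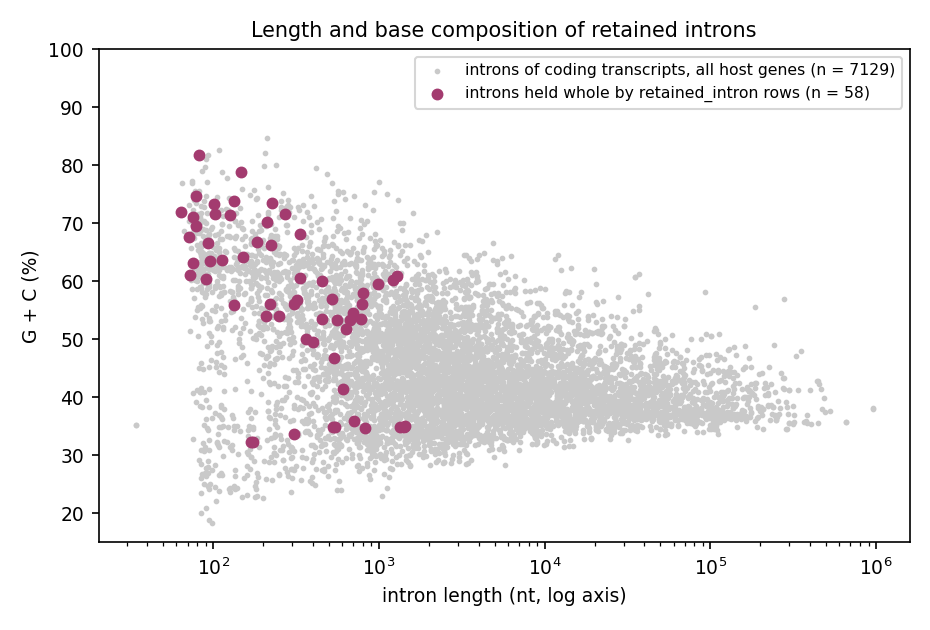
Each point is an intron, placed by its length (nt, log axis) and G + C content (%): grey for 7129 introns of coding transcripts of all host genes and dark red for 58 introns held whole by retained_intron models, whatever their level. The dark red points lie at 1443 nt or shorter and most of them above 50% G + C.

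Of the 64 tested transcripts annotated for nonsense-mediated decay, 51.6% were above 5 FPKM, near the 50.6% of all tested rows of coding genes, and 26 of the 90 were not tested. In all 90 the annotated stop lies more than 50 nt before the last exon junction, at a distance of 62 to 3146 nt with a median of 304.5 nt. This arrangement is part of the definition of the type and is no result of these data. Of the 90 rows, 22 have a model that is unchanged since the table was made. The stop codon is TGA in 56, TAA in 22 and TAG in 12. The 2 highest rows are readthrough transcripts, which join exons of neighbouring genes. ENST00000570760, which joins CTDNEP1, encoding a nuclear envelope phosphatase, to GABARAP, encoding an autophagy protein, was at 1232.49, 1019.63, 1021.23 and 1038.86 FPKM. Replicate 1 was high and the others lay close together. Of its bases, 89.05% are also exon of GABARAP. ENST00000444717, which joins MMP24OS to EIF6, encoding a ribosome biogenesis factor, was at 995.71, 986.9, 976.27 and 1163.8 FPKM. Its stop, printed here with 24 bases before it and 15 after in the spliced transcript (chr20:33855688-33867846, minus strand), is followed by 92 nt before the last junction, and capitals mark the stop codon.
ENST00000444717 stop: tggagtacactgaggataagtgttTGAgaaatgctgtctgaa
HNRNPU, which encodes an abundant nuclear RNA-binding protein, had 2 rows of this type among the 5 highest. HNRNPU-211 was at 821.96, 872.23, 917.04 and 946.6 FPKM with a stop 304 nt before the last junction. HNRNPU-208 was at 693.88, 612.23, 593.41 and 685.12 FPKM, and 66.2% of its bases lie opposite exons of COX20. ENST00000261406, a readthrough transcript with 62.9% of its bases in exons of the ribosome biogenesis gene EMG1, was at 331 ± 64.3 FPKM, with replicate 2 the lowest at 240.42 FPKM.

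Across all types, 43 rows are tagged as readthrough transcripts, 22 of them nonsense_mediated_decay. Of 37 tested, 22 were above 5 FPKM (59.5%) and 11 below, where 50.6% of all tested rows of coding genes and 41.9% of all tested rows were above. Without the readthrough transcripts 293 of 585 tested rows of coding genes were above and 209 below. Among the nonsense_mediated_decay rows, 21 of 43 tested were above and 19 below without the readthrough transcripts.

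Rows with no assigned reading frame included many that lie in untranslated exons. ZPR1-202, from the gene of a zinc finger protein, had the highest level of that type, at 1144.7, 1399.23, 1241.39 and 1038.01 FPKM. It lies wholly within untranslated exon sequence (chr11:116645826-116646592, minus strand) and 50% of its sequence was repeated in the genome. TMEM258-202, from the gene of a subunit of the oligosaccharyltransferase, was at 757 ± 58.8 FPKM, with 43.4% of its bases opposite exons of MYRF. ENST00000394793 was at 681 ± 46.4 FPKM with 44% repeated sequence and no coding exon on its strand. POFUT1-203, from the gene of a protein O-fucosyltransferase, was at 742.82, 600.09, 659.63 and 654.33 FPKM, wholly within untranslated exon sequence and with 3% repeated.

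CDK2AP1, which encodes a CDK2-associated protein, had 2 rows among the 10 highest, CDK2AP1-205 at 573 ± 89.2 FPKM and CDK2AP1-210 at 331 ± 23.9 FPKM. RCL1-207, from a ribosomal RNA processing gene, was at 341 ± 26.6 FPKM, and MPRIP-218, from the gene of a myosin phosphatase partner, was at 330 ± 13.9 FPKM with 53% repeated sequence. MYL6B-203, from a myosin light chain gene, was at 435.17, 269.43, 287.49 and 357.76 FPKM, and 39.9% of its 223 nt are also exon of MYL6.

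TULP4-203 was the only one of the 10 with neither coding exon on its strand nor repeated sequence. It has 2 exons and 424 nt (chr6:158703295-158733390, plus strand), lies outside the coding transcripts of TULP4, a gene of the tubby family, shares no exon base with another gene on either strand and has no repeated sequence in the sampled positions. It was at 322.84, 323.57, 318.96 and 334.19 FPKM, a CV of 2.01%, the lowest of all 361 rows with a mean above 5 FPKM. An estimated 535 fragments per library would alone give a CV of 4.32%. The junction of its exons is shown with the last 20 bases of the first exon in lower case and the first 20 of the second in capitals.
TULP4-203 exon junction: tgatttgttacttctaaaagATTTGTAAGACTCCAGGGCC

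The protein_coding rows with a complete reading frame were divided at 100 codons, and levels on either side of that cut were not compared by a test. Of the 219, 149 have a complete reading frame, and 61 of these encode fewer than 100 codons. Such short frames are often missed by annotation and several encode membrane microproteins. Of 40 tested, 27 were above 5 FPKM (67.5%) and 9 below, with a median of 26.9 FPKM. Complete frames of 100 codons or more had 30 of 53 above (56.6%) and 17 below, with a median of 20.4 FPKM. The share above was 56.7% over all tested protein_coding rows and 50.6% over all tested rows of coding genes. Over all tested rows of the table it was 41.9%.

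TMA7B-201, with a frame of 64 codons like that of a translation machinery-associated protein, had the highest level of all 892 rows, at 1494.23, 1195.39, 1294.6 and 1556.01 FPKM. COX16-203, from a gene for cytochrome c oxidase assembly, followed at 1406.53, 1178.99, 1313.45 and 1239.93 FPKM, and all of its 318 nt also lie in exons of the readthrough gene SYNJ2BP-COX16. SMIM26, which encodes a small mitochondrial membrane protein, had 2 rows, SMIM26-202 at 654 ± 65.2 FPKM and SMIM26-201 at 400 ± 22.3 FPKM. HAPSTR1-202, from the gene of a stress response regulator, was at 375 ± 23.1 FPKM, with 96% of its 10359 nt in intron and 80.5% in exons of a lncRNA on the same strand.

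The reading frames of 3 microproteins are printed because they lie within rows that the table lists as non-coding and whose models are unchanged. They were chosen after their values were seen. MTLN-202 encodes mitoregulin of the inner mitochondrial membrane and was at 267.45, 200.13, 244.04 and 257.57 FPKM. PIGBOS1-203 encodes a protein of the outer mitochondrial membrane and was at 74.21, 58.68, 52.02 and 43.58 FPKM. SMIM31-201 encodes a small integral membrane protein and was at 101.74, 132.82, 114.12 and 112.9 FPKM. Capitals mark the start and stop codons.
MTLN-202: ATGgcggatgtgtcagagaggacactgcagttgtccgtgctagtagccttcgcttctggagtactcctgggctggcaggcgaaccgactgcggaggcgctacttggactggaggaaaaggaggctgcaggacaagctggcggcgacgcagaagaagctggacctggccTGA
PIGBOS1-203: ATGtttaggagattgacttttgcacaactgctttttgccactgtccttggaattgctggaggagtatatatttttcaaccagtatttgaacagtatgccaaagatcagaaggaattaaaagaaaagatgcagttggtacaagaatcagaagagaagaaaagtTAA
SMIM31-201: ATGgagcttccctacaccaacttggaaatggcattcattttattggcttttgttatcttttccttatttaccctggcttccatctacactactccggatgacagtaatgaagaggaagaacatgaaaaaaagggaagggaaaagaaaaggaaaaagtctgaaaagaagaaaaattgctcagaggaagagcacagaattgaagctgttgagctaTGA
The frames have 56, 54 and 71 codons. Exon bases of other coding transcripts on the same strand made up 100% of MTLN-202, 95.3% of PIGBOS1-203 and 20.7% of SMIM31-201.

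Levels went with how much of a row overlaps coding exons, though not in a steady order. The 134 rows that share no base with an exon of another coding transcript on their strand had 30 of 96 tested above 5 FPKM and 52 below, with a median of 2.42 FPKM. The overlap leaves out the row itself, so a row that is itself a coding transcript can count as 0%. TMA7B-201, the row of highest level described above, is in this class. With an overlap above 0 to 50%, 117 of 209 were above and the median was 11.1 FPKM. From above 50 to 90%, 73 of 159 were above and the median was 6.12 FPKM, and above 90%, 95 of 158 were above and the median was 19.02 FPKM. In rows with unchanged models, the medians in the same order were 1.99, 15.1, 3.29 and 18.4 FPKM. Repeated sequence also moved with the level. Of 28 rows with at least 25% repeated sequence, 27 were tested and 26 were above 5 FPKM, with a median of 116 FPKM. Rows with no repeated sequence had 129 of 350 above (36.9%) and a median of 3.83 FPKM. The share above was 50.6% over all tested rows of coding genes and 41.9% over all tested rows of the table. The part of coding-exon reads and of repeats in these levels was not tested. Among the other rows of the table, 919 had at least 25% repeated sequence and 849 of them were tested. Their share above 5 FPKM was not compared. Whether the link between repeats and level is particular to isoforms of coding genes was therefore not tested.

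Host genes differed in how many rows they had: 358 had 1, 167 had 2 or more and 26 had 5 or more. In 40 genes at least 1 row was above 5 FPKM and at least 1 below, and in 100 genes every row was listed at 0. Among 106 genes with 2 or more rows and a sum above 5 FPKM, the highest row held a median of 75.4% of the sum.

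SLC37A4, which encodes the transporter that carries glucose-6-phosphate into the endoplasmic reticulum for glucose release by the liver, had the most rows, 17. Their sum was 481.53, 473.25, 441.76 and 549.17 FPKM, a CV of 9.29%. SLC37A4-215 held the largest share, 36.2 ± 2.93% of the sum, at 189.21, 177.65, 143.33 and 195.45 FPKM, and SLC37A4-216 was at 131 ± 23.5 FPKM. Other rows were high in some libraries and near 0 in others. SLC37A4-201 was at 52.7, 53.91, 0.05 and 0 FPKM, high in replicates 1 and 2 only, while SLC37A4-210 was at 18.62, 0, 40.67 and 55.83 FPKM, and neither was placed on a side of 5 FPKM. Coding-transcript exon makes up 100% of the first and 99.95% of the second, and reads that match several isoforms were divided by estimation.

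**Figure D4:**
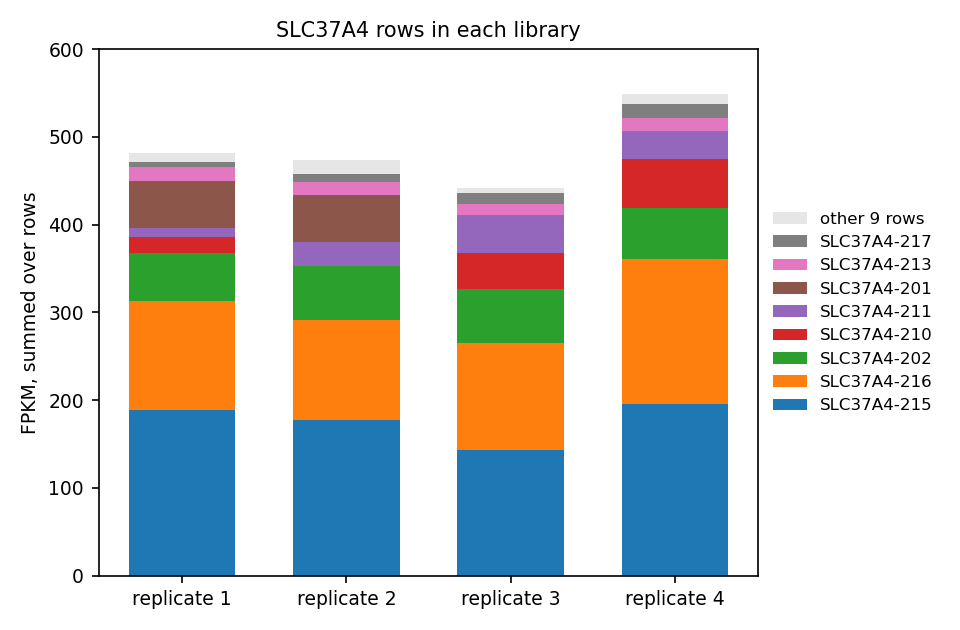
Stacked bars give FPKM of the SLC37A4 rows in each library, with the 8 rows of mean above 5 FPKM in colour and the other 9 summed. The bars differ little in height, between 441.76 and 549.17 FPKM, while SLC37A4-201 is visible in replicates 1 and 2 and SLC37A4-210 in replicates 1, 3 and 4.

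Sums over a gene had a lower median CV than single rows in other genes too. In 51 genes with 2 or more rows of mean above 5 FPKM, the median CV was 10.3% for the sum and 19.03% for those rows, and in 21 of the 51 the sum varied less than each such row. A sum of several rows tends to have a lower CV than its parts by arithmetic alone. No test of a difference beyond that was made, and no conclusion is drawn from it. All 5 rows of mean above 5 FPKM that were at 0 in some library belong to genes with 2 or more rows.

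The other genes with many rows each had 1 or a few that dominated. TMEM191C, of unknown function, had 12 rows, of which TMEM191C-212 was at 58.2 ± 2.49 FPKM and held 95.6 ± 2.48% of the sum, 4 were below 5 FPKM and 7 were not tested. The whole of TMEM191C-212 matched transcripts of TMEM191B at 95% identity or more, so its level cannot be assigned between the copies. MMP24OS, a microprotein gene, had 10 rows, 3 above and 7 below 5 FPKM, led by MMP24OS-203 at 78.8 ± 10.3 FPKM, followed by MMP24OS-201 at 33.7 ± 7.37 FPKM and MMP24OS-207 at 9.45 ± 4.81 FPKM. The call of MMP24OS-207 was lost without replicate 1, 2 or 4, with adjusted p from 0.0807 to 0.218 by limma. It was also lost with another filter on low values, other scaling or no trend, at adjusted p of 0.0537 to 0.0768 by limma. DISP1, needed for release of hedgehog proteins, had 9 rows, DISP1-206 at 56.8 ± 8.50 FPKM, DISP1-208 at 37.0 ± 13.4 FPKM, 3 not placed and 4 listed at 0. RECQL4, a DNA helicase gene, had 8 rows, led by RECQL4-201 at 38.9 ± 3.95 FPKM, RECQL4-206 at 25.1 ± 5.75 FPKM, RECQL4-202 at 23.1 ± 6.90 FPKM and RECQL4-205 at 13.2 ± 7.61 FPKM. Its other 4 rows were below 5 FPKM, and 3 of those calls were lost when 1 library was left out. DLGAP2, a synapse scaffold gene, also had 8 rows, and each was listed at 0.

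Host genes were sorted into 18 lists by the form of their symbols, and 423 of the 892 rows fell on at least 1. The lists are therefore incomplete, and each count below covers only the symbols matched. For comparison, 41.9% of all tested rows of the table were above 5 FPKM and 43.3% below. Among all tested rows of coding genes 50.6% were above and 35.4% below. No list was tested against these shares. The 25 rows of cell cycle and DNA repair genes come from 11 genes. All were tested, with 16 above 5 FPKM, 7 below and a median of 23.1 FPKM. POLDIP2-201, from the gene of a DNA polymerase-interacting protein, was the highest at 287 ± 36.8 FPKM, followed by CDC40-205, from the gene of a splicing factor also needed in the cell cycle, at 106 ± 10.9 FPKM. Chromatin and histone genes had 5 of 8 above, led by ING5-203 at 216 ± 26.6 FPKM and TRRAP-209 at 175 ± 14.9 FPKM, both from genes of histone acetyltransferase complexes. TRRAP-209 has no coding exon on its own strand and 27.8% of its bases lie opposite SMURF1 exons. Of ubiquitin and proteasome genes 9 of 14 tested were above and 4 below, with RNF227-201 at 258 ± 22.8 FPKM and PSMF1-206, from a proteasome inhibitor gene, at 134 ± 8.39 FPKM.

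Splicing and RNA-binding genes had 7 of 13 above and 3 below, led by the HNRNPU rows. Ribosomal protein and translation genes had 3 of 5 above and 0 below, with RPL37A-204, from a large-subunit protein gene, at 291.04, 226.18, 291.09 and 286.96 FPKM and EIF2S3-203, from an initiation factor gene, at 125 ± 19.9 FPKM. The mitochondrial list had 4 of 6 above and 1 below, led by COX16-203 and SLC25A16-202 at 127 ± 9.12 FPKM, and does not hold SMIM26, MTLN or PIGBOS1, described above. Kinase and phosphatase genes had 7 of 12 above and 4 below, led by the CDK2AP1 rows, whose protein is a kinase partner and not a kinase. The zinc finger list, which does not hold ZPR1, had 12 of 26 above and 11 below, led by ZNF267-206 and ZNF761-202, the latter at 144 ± 15.3 FPKM.

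Transporter genes had 14 of 28 above (50%) and 10 below, led by SLC50A1-213 and SLC37A4-215. The 35 rows of that list come from 11 genes, among them SLC37A4, the gene with the most rows. Vesicle, Golgi and lysosome genes had 9 of 17 above (52.9%) and 5 below, led by the 2 VPS11 rows. Both shares lie near the 50.6% of all tested rows of coding genes. Small GTPase genes had 9 of 21 above and 8 below, with ARHGEF38-206 at 77.4 ± 11.4 FPKM and TBC1D30-201 at 43.8 ± 10.3 FPKM. Cytoskeleton, adhesion and matrix genes had 5 of 10 above and 3 below, led by MYL6B-203 and CDH13-209, from the T-cadherin gene, at 58.8 ± 7.99 FPKM. DNA-binding factor genes had 4 of 11 above and 6 below, and both highest rows came from CREB1, the cyclic AMP response factor: CREB1-208 at 109 ± 15.7 FPKM and CREB1-210 at 108 ± 7.398 FPKM, each wholly untranslated exon sequence. The 146 rows of genes with placeholder names had 51 of 96 tested above and 33 below, and the 469 rows on no list had 159 of 315 above and 116 below.

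Of the 30 rows of genes of ion channels, synapses and neurons, 19 (63.3%) were not tested, 18 of them listed at 0. The untested share was 42.3% over all rows of the table and 30.3% over the 892 rows, and no test of the difference was made. DLGAP2 alone gave 8 of the 19, and without it 11 of 22 were not tested. Of those tested, 3 of 11 were above 5 FPKM and 3 below. KCNG1-206, from a potassium channel subunit gene, was at 72.6 ± 5.19 FPKM with 69% of its bases in intron, and STXBP5-206, from the gene of a regulator of vesicle fusion, was at 44.9 ± 7.56 FPKM. The immune list, which does not hold SPN or LAT, had 4 rows: CD96-204 was above at 16.6 ± 6.005 FPKM, IRF1-205 below at 1.37 ± 0.431 FPKM, and 2 were not tested. The 3 rows of imprinted genes were all below, BLCAP-206 at 1.39, 3.46, 1 and 0.83 FPKM and MAGI2-203 at 0.45, 1.25, 1.71 and 0.4 FPKM among them.

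The list named hepatocyte secreted proteins and metabolism had 7 rows, with 2 of 5 tested above 5 FPKM and 1 below. It was matched by symbol and holds none of the 20 hepatocyte markers. Whether its genes are typical of hepatocytes was not checked. CYP27B1-204, from the gene of the enzyme that activates vitamin D, was above 5 FPKM at 13.15, 10.6, 10.51 and 16.92 FPKM. ALDH2-205, from the gene of mitochondrial aldehyde dehydrogenase, was above at 9.49, 9.27, 11.64 and 8.66 FPKM and lies wholly in untranslated exon sequence. ALDH1L2-204 was at 3.29 ± 0.965 FPKM and ALDH3B1-201 at 3.07 ± 4.22 FPKM, and neither was placed. ALDH3B1-202 was below at 0.965 ± 0.717 FPKM. The IGFBP7 rows were not tested, IGFBP7-202 with 0.22 FPKM in replicate 3 alone and IGFBP7-203 listed at 0.

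**Figure D5:**
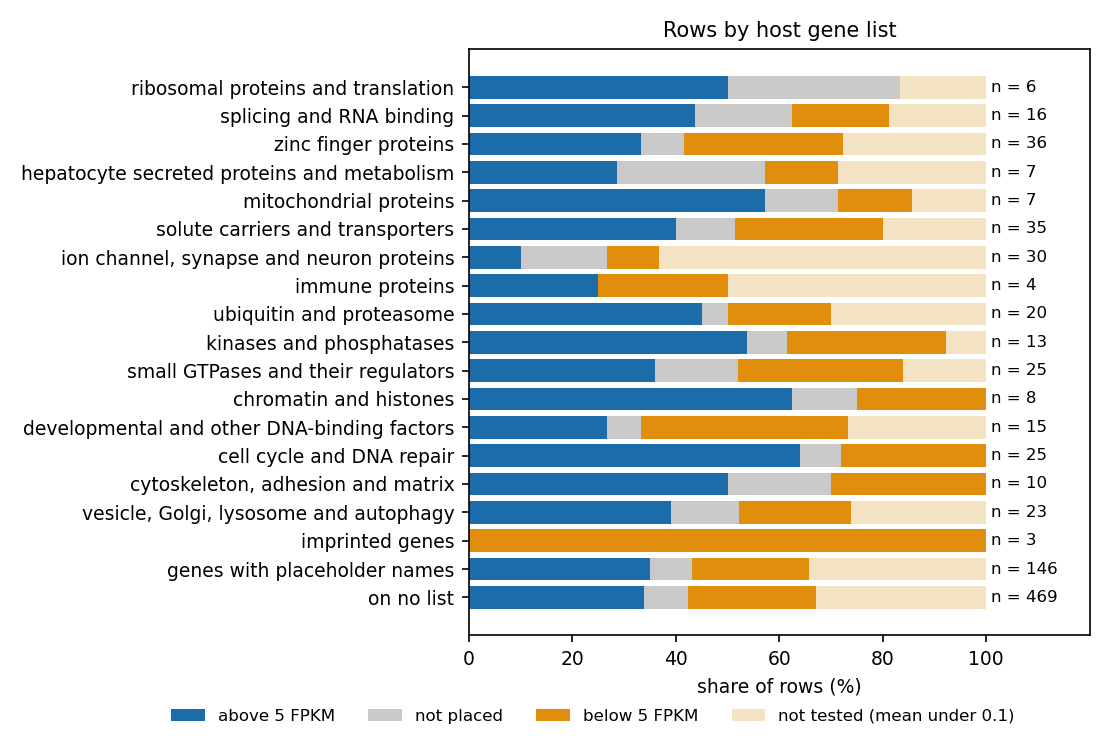
Bars give the share (%) of the rows of each host gene list that were above 5 FPKM, on neither side, below it or not tested for a mean under 0.1 FPKM, with the number of rows at the right. The ion channel, synapse and neuron list has the largest untested share of the lists with 10 or more rows (19 of 30), and the cell cycle, chromatin, cytoskeleton and imprinted lists have none.

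The spread between libraries followed the level. The median CV was 116% for rows of 0.1 to 1 FPKM, 56.0% from 1 to 5 FPKM, 25.2% from 5 to 20 FPKM, 15.8% from 20 to 100 FPKM and 10.7% above 100 FPKM, beside 124%, 50.2%, 25.4%, 15% and 11.4% in the rest of the table. After TULP4-203, the steadiest rows with a mean above 5 FPKM were TEN1-CDK3-201, a readthrough transcript at 50.76, 49.28, 50.42 and 51.74 FPKM, and NEURL4-210 at 34, 33.8, 32.2 and 33.02 FPKM. The most variable were KIZ-202 at 0, 0, 20.25 and 0 FPKM, SLC37A4-201 and LPAR4-202, from a lysophosphatidic acid receptor gene, at 11.28, 21.01, 1.64 and 0.34 FPKM. None of the latter 3 was placed.

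Rows next to the threshold had means of 5.01, 5.02 and 5.06 FPKM just above it (ENST00000417456, APELA-202 and KIZ-202) and 4.79, 4.79 and 4.91 FPKM just below (GSTM5-204, CCZ1B-203 and NBPF1-204). APELA-202 comes from the gene of a short peptide hormone and was at 4.68, 5.06, 5.96 and 4.39 FPKM. None of the 6 was placed.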

How the data were processed

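The authors deposited FPKM values with 2 decimals for 19835 transcripts in 4 libraries. The submitters' notes and methods name Bowtie 1.01 for alignment to Ensembl 68 non-coding transcripts on hg19 (GRCh37) and RSEM 1.2.3 for quantification; the strand setting is not given in the sources used here. Identifiers were matched to GENCODE 44 mapped to GRCh37: 18373 matched, and 420 of the 892 members kept their version. Exon and intron classes use the current models and coding transcripts other than the member itself. Depth was estimated from low FPKM, of which 66.5% to 67.7% lay within 0.05 of a whole fragment at an offset of 80 nt; intervals were not computed from it. With FPKM and no counts, limma 3.58.1 in R 4.3.3 tested log2(FPKM + 1) against log2(5 + 1), with a trend, two-sided, adjusted p under 0.05, after testing on simulated data. The retained_intron ratio used an exact sign-flip permutation. Repeated sequence is the share of sampled 24-mers (1 in 8) found at least 10 times in the genome; sequence shared with other loci came from blastn 2.17.0 (50 nt, 95% identity). Named rows were the highest by mean of each type (10, 10, 5 and 5) and of each list (2), all hepatocyte-list rows, the 5 genes with most rows, 3 on each side of 5 FPKM, and 3 each of lowest and highest CV above 5 FPKM. The members and lists were chosen with earlier results of these data known. Alternatives were other pseudocounts, filters, thresholds, scaling, no trend, unchanged versions and each library left out. A fit with the letters L and H of the titles as a term, the introns of tested rows or without 2 genes, and the ion channel list without DLGAP2 were added after seeing the data. The splice-site sequence of 1 row is not reported here.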

Additional observations from a re-analysis of the deposited data

Results flagged for a closer look

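Of 112 sets of 4 library values examined, 12 had 1 library far from the other 3 by Dixon's 95% criterion for 4 values. For continuous, normally distributed values chance gives such a gap in about 1 of 20 sets. In replicate 1 they were ENST00000570760 (1232.49 FPKM), TMEM191C-201 (2.05 FPKM) and SLC37A4-208 (0.44 FPKM). Replicate 2 stood apart in RPL37A-204 (226.18 FPKM, the lowest of its 4), ZFP90-212 (91.11 FPKM), RECQL4-203 (8.99 FPKM) and SLC37A4-214 (0.66 FPKM). Replicate 3 did so in KIZ-202 (20.25 FPKM) and RECQL4-204 (1.92 FPKM), and replicate 4 in ENST00000444717 (1163.8 FPKM), SLC50A1-213 (502.19 FPKM) and SLC37A4-203 (1.96 FPKM). In 7 of the 12 the other 3 libraries were at 0, where any single value above 0 meets the criterion and that rate does not apply. The 4 libraries each appear, and the cause was not tested.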

How the results depend on the processing

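No paired analysis was possible because the titles give each library its own number, 1 and 3 with the letter L and 2 and 4 with H. A fit with that letter as a term, chosen after seeing the data, gave 314 above and 218 below, lost the calls of MMP24OS-207 and RECQL4-207, and placed DISP1-209 below. Under the other settings the number of rows above the threshold in use ran from 269 to 415. The exception was 149 among unchanged models, where fewer rows were counted. Those settings include thresholds of 1 and 10 FPKM, so the range is not one for 5 FPKM alone. The number below fell to 106 among unchanged models, to 88 with a mean of at least 1 FPKM, which removes low rows, and to 66 against 1 FPKM. Leaving out 1 library gave 308 to 313 above and 196 to 207 below. The retained_intron ratio kept its direction at 0.31 to 0.71 over its alternatives, with 0.43 to 0.71 without 1 library.

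Differences that changed sign belong to rows near a threshold or with unstable values. With a pseudocount of 0.5 or 0.1, SLC37A4-201 went to -0.050 and -0.996. Against 10 FPKM, SLC37A4-201 was at -0.56, ALDH2-205 at -0.039, MMP24OS-207 at -0.21 and ENST00000417456 at -0.87, the last also at -0.0059 with median-of-ratios scaling. Against 1 FPKM, differences turned positive in LPAR4-202 (1.48), DISP1-205 (1.18), KIZ-202 (0.10), APELA-202 (1.58), NBPF1-204 (1.52), CCZ1B-203 (1.47), GSTM5-204 (1.53), SLC37A4-207 (1.49), SLC37A4-205 (1.30), DISP1-209 (0.54), DISP1-211 (0.92), ALDH1L2-204 (1.07), ALDH3B1-201 (0.46), RECQL4-207 (0.79), RECQL4-208 (0.82), MMP24OS-204 (0.38), BLCAP-206 (0.32), MMP24OS-208 (0.35) and IRF1-205 (0.23). Without 1 library, ranges crossed 0 in SLC37A4-201 (-0.65 to 1.28), LPAR4-202 (-0.77 to 0.57), DISP1-205 (-0.78 to 0.32), APELA-202 (-0.073 to 0.050), ENST00000417456 (-0.027 to 0.021), NBPF1-204 (-0.22 to 0.083), CCZ1B-203 (-0.28 to 0.054), GSTM5-204 (-0.12 to 0.0087) and SLC37A4-207 (-0.24 to 0.0091). None of these 9 was placed in the first fit. Calls appeared without replicate 2 in SLC37A4-210 (2.58), without replicate 1 in DISP1-209 (-1.76) and without replicate 3 in ALDH3B1-201 (-1.75). They were lost in MMP24OS-207 without replicate 1, 2 or 4, in RECQL4-207 without replicate 1 or 4, in RECQL4-208 without replicate 1 or 2 and in RECQL4-203 without replicate 4. The estimated depth limits what can be said of rows under 1 FPKM.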
